A study of Mus musculus with 2 samples.

Results

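Accessible chromatin was described at 10 genes of eicosanoid synthesis and signalling in mouse bone marrow-derived macrophages, with the neighbouring genes Pla2g4a and Ptgs2 shown by position. The genes were Pla2g4a, Ptgs1, Ptgs2, Ptges, Alox5, Alox5ap, Lta4h, Ptger2, Ptger4 and Hpgd, out of 21883 protein-coding genes on the assembled chromosomes. A peak was counted for a gene when one of that gene's ends was the nearest protein-coding gene end to the peak's summit and lay within 100 kb. This gave 47 of the 37725 peaks of the R848 list and 45 of the 77060 peaks of the untreated list. The members were selected on these peak lists, by the presence and number of peaks at each gene, so their counts are descriptions and carry no test. Near the 100 kb limit, the farthest R848 peak inside it lay 89669 bp from Ptgs2 and the nearest outside it lay 104785 bp from Ptger4. In the untreated list these were 98650 bp from Ptgs2 and 125215 bp from Ptger4.

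ATAC-seq, in which the Tn5 transposase cuts and tags open DNA, had been run on wild-type macrophages grown from bone marrow in 20 ng/ml M-CSF. The R848 group held 1 library, made after 2 h with 100 ng/ml of R848 (resiquimod), which activates the endosomal RNA sensor TLR7. The untreated group held 1 library from cells of the same genotype and culture without R848. With 1 library per group there was no replicate check, and sites that differ between the lists are differences between these libraries.

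Eicosanoids are lipid mediators made from arachidonic acid. Cytosolic phospholipase A2, the product of Pla2g4a, frees arachidonic acid from membrane phospholipids. The cyclooxygenases encoded by Ptgs1 and Ptgs2 turn it into prostaglandin H2, which the synthase encoded by Ptges converts to prostaglandin E2, a ligand of the receptors EP2 (Ptger2) and EP4 (Ptger4). In the other branch 5-lipoxygenase (Alox5), with its activating protein FLAP (Alox5ap), makes leukotriene A4, and the hydrolase encoded by Lta4h converts this to leukotriene B4, a neutrophil attractant. Macrophages use both branches in inflammation, and Hpgd encodes the dehydrogenase that inactivates prostaglandins.

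The strength of a peak is given as tags, the number of extended reads over its summit, solved from the authors' fold and p columns. Intervals on tags are exact 95% Poisson intervals and cover counting error only. The genome-wide background was 1.36 tags in the R848 library and 0.968 tags in the untreated library. Tags at single genes are not scaled for this difference in background unless that is stated. At that background 4 tags in the R848 library and 3 tags in the untreated library would not have passed as a peak, so a site without a peak is not a site without tags. The libraries stood apart on the sex chromosomes: X held 2.17% of R848 peaks and 5.91% of untreated peaks, and Y held 0.488% of R848 peaks and 4.88% of untreated peaks. All 10 genes are autosomal. Of 9 macrophage markers, including Csf1r, Spi1 and Lyz2, each had a peak in at least one list, and 7 had an R848 peak and 5 an untreated peak within 1 kb of a gene end. Of 27 markers of neutrophils, mast cells and basophils, platelets, B cells, T cells and fibroblasts, 6 had an R848 peak and 5 an untreated peak within 1 kb of a gene end. Of all protein-coding genes 33.8% had such an R848 peak and 26.7% such an untreated peak. The cell types differed. Of 6 neutrophil markers 3 had such an R848 peak and 2 an untreated peak, and of 4 platelet markers 1 and 2 did. The numbers were 1 and 0 of 5 for mast cells and basophils and 1 and 1 of 4 for T cells. No B cell or fibroblast marker had one. The 6 of the 27 with no peak in either list, against 19.8% of all genes, were Elane, Cpa3, Ms4a2, Pf4, Cd3e and Cd8a. Others had peaks of up to 18 R848 tags at S100a9, 15 R848 tags at S100a8 and Camp, 16 untreated tags at Kit and 15 untreated tags at Gp9. Purity of the cells was not tested.

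Every one of the 10 genes had at least 1 R848 peak that no untreated peak overlapped (an R848-only peak), against 47.2% of all protein-coding genes. With a −log10 q of at least 2 in both lists 7 of the 10 had one, and with ends of any gene type 7 did. No share of all genes is given for those settings. Counting every gene with a summit in it or within 50 kb, 9 of the 10 had one, against 77.2% of all protein-coding genes. Of the 47 R848 peaks, 38 (80.9%) were R848-only. The share was 69.0% over all R848 peaks and 66.9% over those assigned to a protein-coding gene. Of the 45 untreated peaks, 36 (80.0%) had no R848 peak over them (untreated-only). This was near the 79.8% of untreated peaks assigned to a protein-coding gene, and 84.7% of all untreated peaks had none. These 36 lay at 9 of the 10 genes against 56.9% of all genes. The median gene of the group had 3 R848-only peaks, and the median over all protein-coding genes was 0. At least 3 such peaks were found at 7 of the 10 genes, against 10.3% of all genes. R848-only peaks outnumbered untreated-only peaks at Pla2g4a, Ptgs1, Ptges and Alox5ap, or 4 of the 10 genes, against 20.8% of all genes. Without Pla2g4a and Ptgs2 the other 8 genes had 20 R848-only among 28 R848 peaks and 25 untreated-only among 33 untreated peaks.

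**Figure D1:**
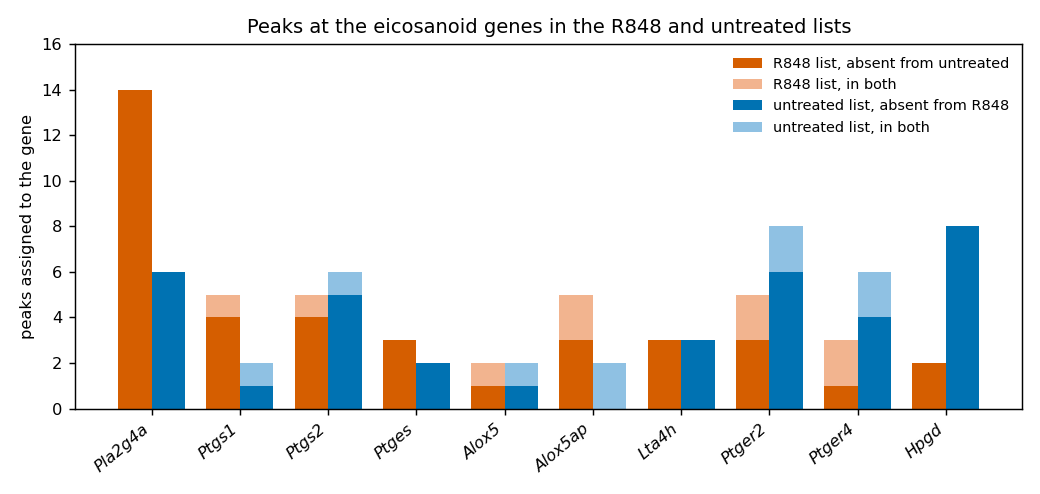
Peaks assigned to each gene (vertical axis, number of peaks), with the R848 list left and the untreated list right in each pair. Dark parts are peaks absent from the other list and light parts are peaks present in both. Pla2g4a had 14 R848 and 6 untreated peaks, all dark, while Hpgd had 2 R848 and 8 untreated peaks.

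The R848-only peaks of the 10 genes had a higher median strength than all R848-only peaks. It was 10 tags, with a range of 6 to 18, against a median of 7 tags over all 26035 R848-only peaks. A −log10 q of at least 2, which is a false discovery rate of 0.01 within the library, was reached by 20 of the 38, against 22.6% of all R848-only peaks. Pla2g4a held 7 of these 20 and Ptgs2 held 4, while Alox5, Ptger4 and Hpgd held none. The untreated-only peaks of the same genes had a median of 7 tags, with a range of 4 to 12, equal to the median of all untreated-only peaks. Of these 36, 15 reached a −log10 q of at least 2, against 31.4% of all untreated-only peaks. At a −log10 q of at least 5 the numbers were 8 of the 38 R848-only peaks, against 5.19% of all R848-only peaks, and 0 of the 36 untreated-only peaks, against 2.68% of all untreated-only peaks. Apart from 1 peak of Lta4h and 1 of Ptger2, these 8 lay at Pla2g4a and Ptgs2.

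**Figure D2:**
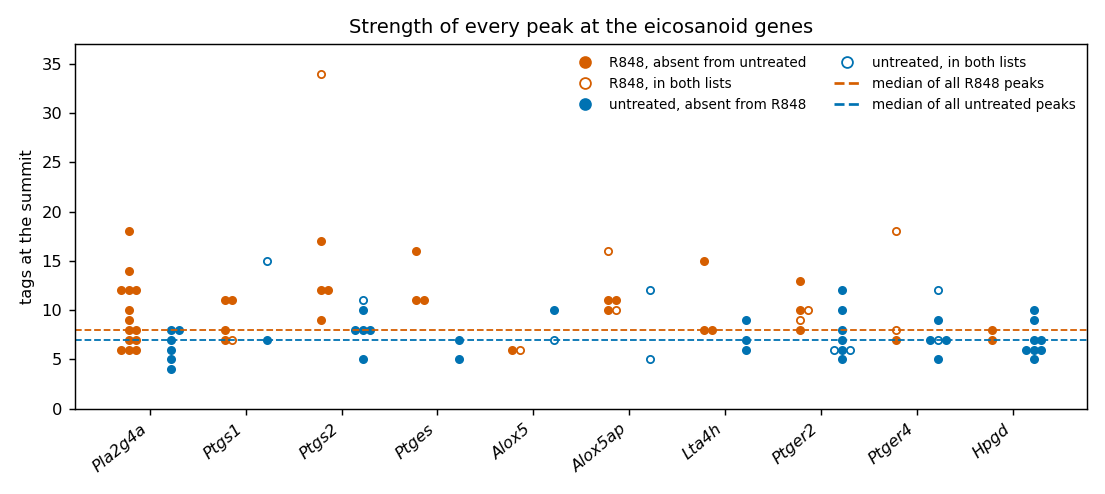
Tags at the summit (vertical axis) of every peak of the 10 genes, with R848 peaks left and untreated peaks right at each gene. Filled points are absent from the other list, open points are in both, and dashed lines are the medians of all peaks, 8 tags for R848 and 7 for untreated. The highest point is the 34-tag R848 peak of Ptgs2, and the untreated points stay at or below 15 tags.

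The phospholipase gene Pla2g4a lies on chromosome 1 (149829618 to 149961290, mm10) and is read from right to left. It had 14 R848 peaks and 6 untreated peaks, and no peak of either list overlapped one of the other. Along the chromosome its R848 peaks held 6, 6, 7, 9, 12, 18, 12, 8, 12, 10, 6, 14, 8 and 7 tags. Its untreated peaks held 4, 5, 8, 7, 6 and 8 tags. The ranges overlapped, and these tags are not scaled for the background, which was 1.40 times higher in the R848 library. The highest fold was 5.72 in the R848 list and 4.57 in the untreated list.

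Inside the gene lay 10 of the R848 peaks and 2 of the untreated peaks. The 30 kb at the 3′ end held 6 R848 peaks, of which the strongest spanned 149840758 to 149841375. It held 18 tags (10.7 to 28.4) with a fold of 5.72 and lay 11439 bp from the gene's end. Its neighbours, at 149840299 to 149840613 and 149842243 to 149842488, held 12 tags each (6.20 to 21.0). The local background there reached 2.32 tags, above the 1.36 tags of the whole R848 library. Both untreated peaks of the gene body also lay in this 3′ stretch, at 149842846 to 149843118 with 8 tags (3.45 to 15.8) and at 149848140 to 149848339 with 7 tags (2.81 to 14.4). The first of these was 357 bp from the nearest R848 peak.

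Toward the start of Pla2g4a the untreated list had no peak in the first 25 kb of the gene, where the R848 list had 3. The strongest of these, at 149947049 to 149947566, held 14 tags (7.65 to 23.5) and lay 14102 bp inside the gene. Another of them, with 10 tags (4.80 to 18.4), lay at 149940283 to 149940528. RefSeq gives Pla2g4a another start inside the gene, at 149922439, and an R848-only peak of 12 tags (6.20 to 21.0) with a fold of 5.42 had its summit 1594 bp upstream of it, at 149923840 to 149924169. The R848-only peak at the outer start was wide but weak, at 149961088 to 149961932 with 8 tags (3.45 to 15.8) and a −log10 q of 1.71. It covered all 300 bases of the promoter window, and its summit lay 543 bp upstream of the start.

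The stretch from the outer end of Pla2g4a to the outer end of Ptgs2 measures 278617 bp and held 13 R848 peaks, all R848-only, and 4 untreated peaks, all untreated-only. When the genome was cut into windows of this length, 32 of 9549 windows with any peak (0.335%) held at least 13 R848-only peaks, with a median of 2. At least 4 untreated-only peaks were found in 80.6% of windows, with a median of 6. The locus was chosen for its peaks, so these shares describe it and test nothing. In the 138740 bp between the genes there were 3 R848 peaks. The Pla2g4a and Ptgs2 starts accounted for 2 of them, and the remaining one, at 150002910 to 150003149, held 7 tags (2.81 to 14.4). The same stretch held 2 untreated peaks, at 149979437 to 149979659 with 6 tags and at 150011089 to 150011306 with 8 tags (3.45 to 15.8). The 100 kb beyond Ptgs2 held 4 R848 and 6 untreated peaks, and 1 site there was in both lists.

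**Figure D3:**
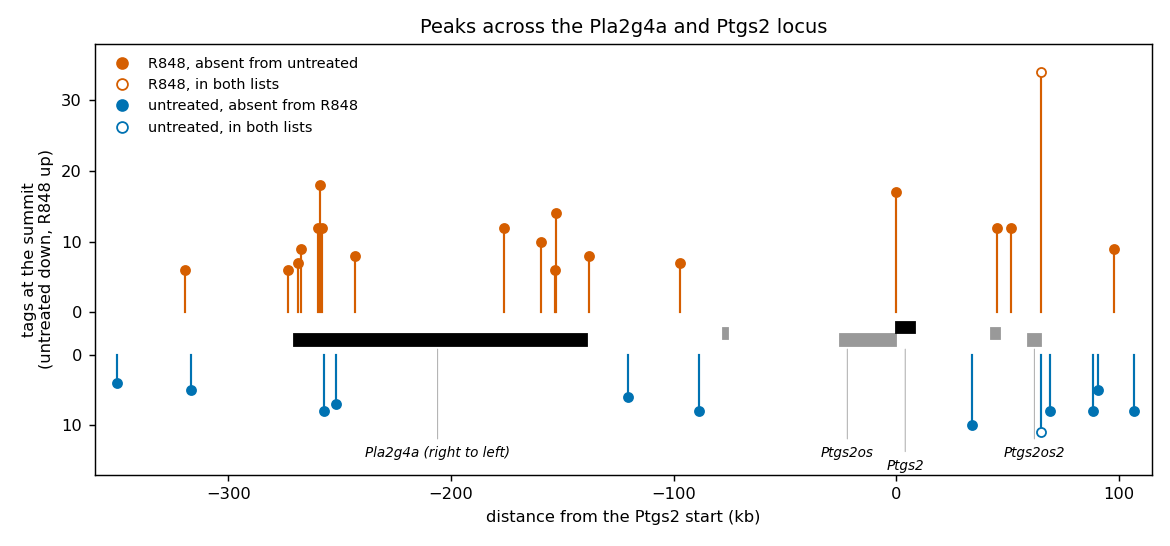
Peaks along chromosome 1 by distance from the Ptgs2 start (horizontal axis, kb), with R848 tags drawn upward and untreated tags downward (vertical axis). Black boxes are Pla2g4a and Ptgs2, grey boxes are genes that do not code for protein, and open points are in both lists. R848 peaks stand close together at the left end of Pla2g4a, a single R848 peak of 17 tags stands at the Ptgs2 start, and the 34-tag site right of Ptgs2 is the one drawn open on both sides.

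Ptgs2 encodes the inducible cyclooxygenase COX-2 and occupies 150100031 to 150108234 on chromosome 1, read from left to right. Its 5 R848 peaks held 17, 12, 12, 34 and 9 tags in chromosome order. The 6 untreated peaks held 10, 11, 8, 8, 5 and 8 tags. All 5 R848 peaks reached a −log10 q of at least 2, as did 5 of the 6 untreated peaks, and neither list had a summit inside the gene.

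The R848-only peak at the Ptgs2 start spanned 150099587 to 150100312 and held 17 tags (9.90 to 27.2) at a −log10 q of 9.27. Its summit lay 46 bp upstream of the start, and the nearest untreated peak was 33389 bp away. The promoter window, from 250 bases before to 50 after the RefSeq start, lay wholly under this peak and under no untreated peak, so its RefSeq sequence (GRCm38.p6, the mm10 assembly) is shown here, as are those of the other members' promoters that a peak covered. Capitals mark letters that match the searched motifs, in order an ETS motif (GAGGAA), a C/EBP motif (TTGCNNAA), an NF-kB motif (GGG and CC with any 5 bases between), and the core of the cAMP response element (TGACG) read on the opposite strand, which shares bases with an E-box (CACGTG).
Ptgs2 promoter, chr1:150099781-150100080, plus strand: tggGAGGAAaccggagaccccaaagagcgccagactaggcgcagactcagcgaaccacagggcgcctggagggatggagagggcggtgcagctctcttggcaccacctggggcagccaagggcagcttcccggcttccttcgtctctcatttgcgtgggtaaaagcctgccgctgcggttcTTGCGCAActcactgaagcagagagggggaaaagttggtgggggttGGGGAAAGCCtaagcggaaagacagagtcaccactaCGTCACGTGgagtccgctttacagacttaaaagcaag

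Of 9 motifs searched on both strands, the Ptgs2 window held 5. That many kinds were found in 0.359% of the 32851 RefSeq promoter windows of the same length. Kinds can share bases, as TGACG and CACGTG do here, so this share describes the window and tests nothing. Taken singly, the NF-kB motif was found in 50.8% of windows, GAGGAA in 28.3%, TGACG in 20.8%, TTGCNNAA in 10.8% and CACGTG in 7.15%. The full cAMP response element TGACGTCA, in 1.79% of windows, the AP-1 motif TGANTCA, in 7.81%, the interferon response motif (GAAA and GAAA with any 2 bases between), in 3.44%, and the TATA motif TATAAA, in 13.6%, were not in the Ptgs2 window. A match describes the letters and does not show that a factor was bound. The antisense gene Ptgs2os starts at 150099874 on the opposite strand, 111 bp from the summit of the same R848 peak.

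By contrast, the outer Pla2g4a promoter window, also wholly under an R848-only peak, held none of the 9 motifs, and 83.7% of all windows held at least 1. It is shown beside that of Ptgs2 because the same R848 list covered both starts.
Pla2g4a promoter, chr1:149961241-149961540, minus strand: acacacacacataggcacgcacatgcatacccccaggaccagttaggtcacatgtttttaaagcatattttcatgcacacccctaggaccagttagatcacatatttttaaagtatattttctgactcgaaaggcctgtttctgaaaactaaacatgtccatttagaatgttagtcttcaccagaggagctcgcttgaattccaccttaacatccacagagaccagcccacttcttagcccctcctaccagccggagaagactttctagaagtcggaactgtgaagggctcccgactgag

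Downstream of Ptgs2 the strongest site of the whole group was present in both lists. In the R848 list it spanned 150164860 to 150165383 with 34 tags (23.5 to 47.5) and a fold of 10.7. The untreated peak there spanned 150164793 to 150165183 with 11 tags (5.49 to 19.7) and a fold of 4.88. Divided by the background of each library these are 25.0 (17.3 to 35.0) for R848 and 11.4 (5.67 to 20.3) for untreated, with intervals that overlap. By protein-coding gene ends the site belongs to Ptgs2, 56838 bp away, but it covers the start of the antisense gene Ptgs2os2, at 150164948, whose promoter window lay under a peak in both lists. The R848 and untreated summits lay 124 bp and 37 bp from that start. Capitals in its sequence mark a C/EBP match and an interferon response match on the opposite strand.
Ptgs2os2 promoter, chr1:150164899-150165198, minus strand: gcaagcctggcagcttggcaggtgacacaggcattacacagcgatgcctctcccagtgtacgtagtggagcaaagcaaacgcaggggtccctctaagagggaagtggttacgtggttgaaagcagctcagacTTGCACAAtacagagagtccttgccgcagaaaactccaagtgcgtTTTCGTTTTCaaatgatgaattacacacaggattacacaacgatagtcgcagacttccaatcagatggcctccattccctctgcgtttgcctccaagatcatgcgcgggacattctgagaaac

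The other downstream R848-only peaks of Ptgs2 lay at 150145126 to 150145471 and 150151313 to 150151741 with 12 tags each (6.20 to 21.0), and at 150197684 to 150198058 with 9 tags (4.12 to 17.1). The strongest untreated-only peak, at 150133702 to 150133984, held 10 tags (4.80 to 18.4) and was 25605 bp from the gene. Other untreated-only peaks with a −log10 q of at least 2 lay at 150169069 to 150169305, 150188398 to 150188682 and 150206826 to 150207054, with 8 tags each (3.45 to 15.8). Their intervals overlap those of the R848-only peaks. When genes that do not code for protein also took peaks, Ptgs2 kept 1 R848-only peak, that at its start, and within 20 kb it likewise had 1.

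Ptgs1 encodes the constitutive cyclooxygenase COX-1 and lies on chromosome 2 (36216742 to 36258593). It had 5 R848 peaks of 11, 8, 7, 11 and 7 tags and 2 untreated peaks of 7 and 15 tags. The R848 values all lay between the 2 untreated values or at the lower of them. Its strongest R848 peak by fold, 5.09, lay 20384 bp beyond the gene at 36278804 to 36279138, with 11 tags (5.49 to 19.7), and was R848-only. At the outer end of the gene an R848-only peak of 11 tags (36216660 to 36216876) and an untreated-only peak of 7 tags (36216942 to 36217143) were separated by 65 bp, so they count as different only under an overlap rule. The promoter window of the RefSeq start of Ptgs1, further inside the gene record, was covered over 90 of its 300 bases by an R848-only peak of 8 tags (3.45 to 15.8) at 36230386 to 36230585. The sequence is shown for comparison with Ptgs2, and capitals mark an ETS and an NF-kB match.
Ptgs1 promoter, chr2:36230176-36230475, plus strand: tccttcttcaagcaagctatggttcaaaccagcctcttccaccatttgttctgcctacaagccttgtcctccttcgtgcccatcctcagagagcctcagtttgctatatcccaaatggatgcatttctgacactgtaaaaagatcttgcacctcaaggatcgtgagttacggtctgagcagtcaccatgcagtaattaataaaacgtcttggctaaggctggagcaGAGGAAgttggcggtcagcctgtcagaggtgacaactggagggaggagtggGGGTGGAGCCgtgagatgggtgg

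Ptges, the gene of the inducible prostaglandin E synthase, lies on chromosome 2 (30889471 to 30931020) and is read from right to left. Its R848 peaks held 11, 16 and 11 tags and its untreated peaks 7 and 5 tags, and no site was shared. The folds overlapped, at 2.94 to 4.23 for R848 and 3.05 to 4.06 for untreated, as did the intervals on tags. The 3 R848 peaks stood close together, from 30927299 to 30929886, in a stretch whose local background reached 3.08 tags in the R848 library, against 0.968 tags at both untreated peaks. The strongest, at 30928874 to 30929356, held 16 tags (9.15 to 26.0) with a fold of 4.23. These lay 1236 to 3557 bp inside the outer end of the gene record and 24166 to 26487 bp upstream of the start in the promoter table, whose window had no peak in either list. The stronger untreated peak lay 1276 bp upstream of that start, at 30904457 to 30904686, with 7 tags (2.81 to 14.4).

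Alox5, which encodes 5-lipoxygenase, lies on chromosome 6 (116410071 to 116461178). Its R848 peaks held 6 and 6 tags, and its untreated peaks held 7 and 10 tags. The site at 116455797 to 116456053 in the R848 list, 5265 bp inside the gene, was in both lists with 6 R848 tags and 7 untreated tags, with intervals that overlap. The strongest untreated peak by tags lay at 116474493 to 116474751, 13495 bp upstream, and its fold of 3.31 was below the 4.06 of the shared site. No R848 peak of Alox5 reached a −log10 q of 2, and its promoter had no peak in either list.

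Alox5ap, which encodes the 5-lipoxygenase-activating protein FLAP, lies on chromosome 5 (149265004 to 149288153). Its 5 R848 peaks held 16, 11, 10, 10 and 11 tags, and its 2 untreated peaks held 12 and 5 tags. Unlike the other genes it had no untreated-only peak. All of its R848 peaks reached a −log10 q of at least 2, as did all those of Ptgs2. The strongest site, 18918 bp outside the gene at 149245915 to 149246326, was in both lists with 16 R848 tags (9.15 to 26.0) and 12 untreated tags (6.20 to 21.0). An R848-only peak of 11 tags (5.49 to 19.7) stood 182 bp from a gene end, at 149264646 to 149264998. Inside the gene there were R848-only peaks of 10 and 11 tags, and a further site counted as present in both lists by an overlap of 12 bp. That site is R848-only under the rule that more of the shorter peak must be covered.

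Lta4h, the leukotriene A4 hydrolase gene, lies on chromosome 10 (93453396 to 93484896). Its R848 peaks held 8, 8 and 15 tags and its untreated peaks 7, 9 and 6 tags, and none was shared. The 15-tag R848-only peak (8.40 to 24.7) had its summit 55 bp upstream of the start, at 93452957 to 93453525, with a fold of 6.40. The nearest untreated peak was 34941 bp away. The other R848 peaks lay 7716 and 8715 bp upstream, whereas the untreated peaks lay 37899 to 42769 bp upstream, the strongest at 93411190 to 93411389. The promoter window was wholly under the R848-only peak and is shown with its NF-kB matches and 1 ETS match in capitals. The ETS match, read on the opposite strand, lies within the first of them.
Lta4h promoter, chr10:93453146-93453445, plus strand: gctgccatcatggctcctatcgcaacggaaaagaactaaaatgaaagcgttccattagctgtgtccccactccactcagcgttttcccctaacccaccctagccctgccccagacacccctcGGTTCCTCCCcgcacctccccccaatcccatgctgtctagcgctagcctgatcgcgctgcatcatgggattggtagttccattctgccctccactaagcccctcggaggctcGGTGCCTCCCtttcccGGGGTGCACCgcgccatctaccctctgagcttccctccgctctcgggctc

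**Figure D4:**
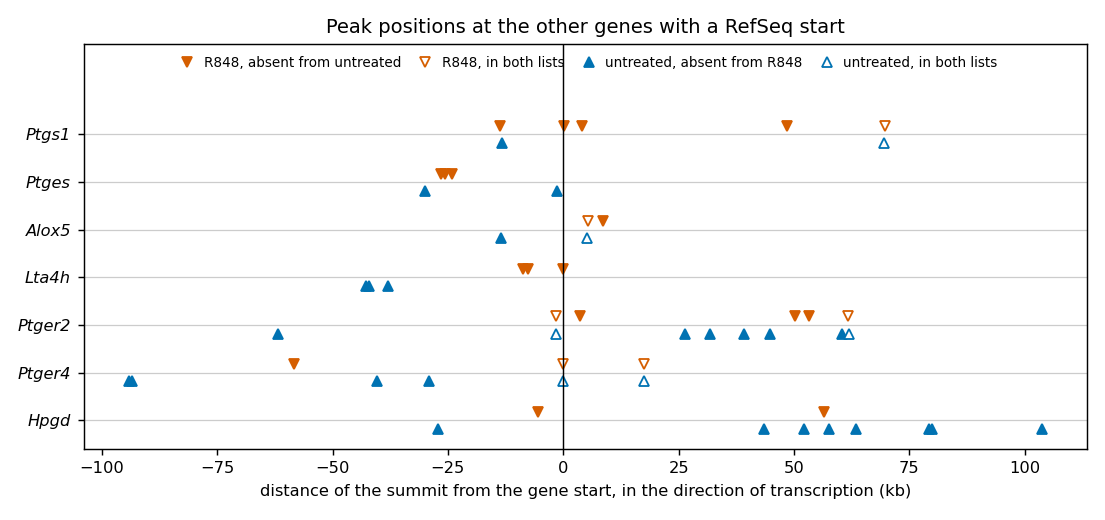
Summit positions at 7 genes by distance from the RefSeq start in the direction of transcription (horizontal axis, kb), with R848 peaks above and untreated peaks below each gene's line. Filled symbols are absent from the other list and open symbols are in both. Lta4h has an R848 symbol at its start and untreated symbols about 40 kb upstream, and Ptger4 has both at its start.

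Ptger2 encodes the prostaglandin E2 receptor EP2 and lies on chromosome 14 (44988111 to 45003820). It had 5 R848 peaks of 10, 8, 10, 13 and 9 tags and 8 untreated peaks of 6, 6, 8, 12, 7, 10, 5 and 6 tags. Sites in both lists lay 1633 bp upstream of the start, with 10 R848 tags and 6 untreated tags, and 46055 bp downstream of the gene, with 9 R848 and 6 untreated tags. Their intervals overlap. Its strongest R848 peak was R848-only, at 45041272 to 45041557 with 13 tags (6.92 to 22.2). The strongest untreated peak, at 45019725 to 45020112, was untreated-only with 12 tags (6.20 to 21.0).

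Ptger4 encodes the receptor EP4, lies on chromosome 15 (5233399 to 5244187) and is read from right to left. It had R848 peaks of 8, 18 and 7 tags and untreated peaks of 12, 7, 9, 7, 5 and 7 tags. Its start was open in both lists. The R848 peak there (5243942 to 5244671) held 18 tags (10.7 to 28.4) with a fold of 7.36, and the untreated peak (5243980 to 5244351) held 7 tags (2.81 to 14.4) with a fold of 4.06. At the other shared site, 6661 bp past the 3′ end, the untreated peak was the stronger, with 8 R848 tags (3.45 to 15.8) and 12 untreated tags (6.20 to 21.0). The single R848-only peak, 58331 bp upstream, held 7 tags. Of the 10 promoter windows found for 9 of the genes, that of Ptger4 was the one under a peak in both lists, with 300 of its bases under the R848 peak and 214 under the untreated peak. Capitals mark NF-kB matches, the first 2 of which overlap.
Ptger4 promoter, chr15:5244138-5244437, minus strand: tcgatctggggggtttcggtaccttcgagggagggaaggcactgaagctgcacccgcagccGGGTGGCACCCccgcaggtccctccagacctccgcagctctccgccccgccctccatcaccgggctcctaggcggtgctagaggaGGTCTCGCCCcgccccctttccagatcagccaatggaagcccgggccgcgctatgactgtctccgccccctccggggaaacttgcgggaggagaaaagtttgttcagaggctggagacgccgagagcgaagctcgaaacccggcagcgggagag

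Hpgd, the prostaglandin dehydrogenase gene on chromosome 8 (56294552 to 56321046), had the opposite balance to Pla2g4a. Its balance leaned the way of the whole lists, which held 0.490 R848 peaks per untreated peak, or 0.605 among peaks assigned to a protein-coding gene. Its 2 R848 peaks held 7 and 8 tags and its 8 untreated peaks held 6, 7, 6, 7, 10, 9, 6 and 5 tags, with no shared site. No summit of either list was inside the gene. The strongest R848 peak (56350978 to 56351214, 8 tags) and an untreated peak of 7 tags were 643 bp apart, about 30 kb downstream of the gene. The strongest untreated peak, at 56357662 to 56358110, held 10 tags (4.80 to 18.4) and lay 36913 bp downstream. Neither R848 peak reached a −log10 q of 2, and 3 of the untreated peaks did.

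At gene ends the lists differed in how many of these genes they covered. An R848 peak lay within 1 kb of an end of 6 genes, namely Pla2g4a, Ptgs1, Ptgs2, Alox5ap, Lta4h and Ptger4, against 33.8% of all protein-coding genes. An untreated peak did so at Ptgs1 and Ptger4, against 26.7% of all genes. At 5 of the 6 genes, all but Ptger4, the R848 peak was R848-only, where 41.5% of all R848 peaks within 1 kb of a gene end were. That of Ptgs1 lay 65 bp from an untreated peak and is shared when peaks up to 500 bp apart count as shared. Of the 10 promoter windows, 5 lay under an R848 peak and 1 under an untreated peak, against 34.4% and 24.9% of the windows of all protein-coding genes. The 4 windows under an R848 peak alone compare with 12.0% of all such windows. R848 summits lay inside their gene for 22 of 47 peaks and untreated summits for 7 of 45, against 46.6% of all assigned R848 peaks and 36.7% of all assigned untreated peaks. The median distance to the gene end was 10849 bp for R848 and 31103 bp for untreated peaks of these genes, against 8436 bp for all assigned R848 peaks and 17713 bp for all assigned untreated peaks.

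Sites present in both lists numbered 9, at Ptgs1, Ptgs2, Alox5, Alox5ap, Ptger2 and Ptger4. Relative to each library's background the R848 value was the higher at 5 of them and the untreated value at 4, and all 9 pairs of intervals overlapped. The widest differences were the Ptgs2os2 site described above and the site 41465 bp beyond Ptgs1. The Ptgs1 site held 7 R848 tags, or 5.15 times background (2.07 to 10.6), and 15 untreated tags, or 15.5 times background (8.67 to 25.6). At the Ptger4 start the values were 13.2 (7.85 to 20.9) for R848 and 7.23 (2.91 to 14.9) for untreated.

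**Figure D5:**
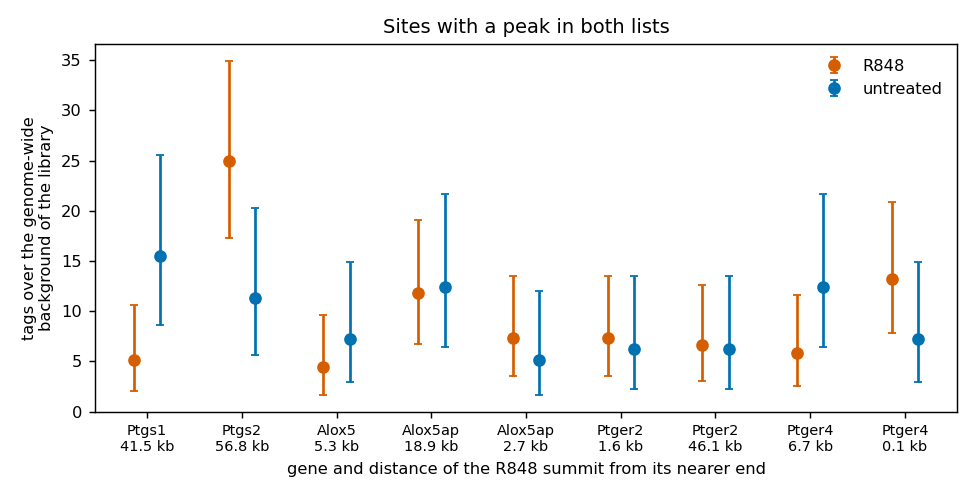
Tags divided by the genome-wide background of the library (vertical axis) at the 9 sites with a peak in both lists, R848 left and untreated right. Bars are exact 95% Poisson intervals, which cover counting error only. Intervals overlap at every site, including Ptgs2 with 25.0 for R848 and 11.4 for untreated.

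A list of 48 other genes of the pathway was also examined. At least 1 R848-only peak was found at 27 of them and at least 1 untreated-only peak at 22, against 47.2% and 56.9% of all protein-coding genes, and the median was 1 R848-only peak per gene. By role, R848-only peaks were found at 8 of 13 genes of arachidonate supply, 7 of 7 prostanoid synthases, 1 of 5 lipoxygenases, 3 of 4 leukotriene enzymes, 5 of 13 receptors and 3 of 6 genes of transport and breakdown. Those with at least 3 were Abcc4, an exporter of prostaglandins, Slco2a1, the prostaglandin transporter, Ptger3, which encodes the receptor EP3, and Tbxas1, the thromboxane synthase gene. Abcc4 had 6 R848-only and 7 untreated-only peaks, Slco2a1 had 5 R848-only and 3 untreated-only, and Ptger3 had 4 R848-only and 4 untreated-only. Tbxas1 had 4 R848-only peaks of 8, 7, 7 and 7 tags and no untreated peak. No peak of either list was assigned to 11 of the 48 genes and to 0 of the 10, against 19.8% of all genes. They were Pla2g12a, Alox15, Alox8, Aloxe3, Ptger1, Ptgir, Tbxa2r, Ltb4r1, Ltb4r2, Ptgr1 and Ephx2. Counting every gene with a summit in it or within 50 kb of it, 43 of the 48 had an R848-only peak, against 77.2% of all protein-coding genes. Cysltr1, with 0 R848 and 4 untreated peaks, and Acsl4, with 2 R848-only peaks and 1 untreated-only peak, are on X, which held a smaller share of R848 peaks than of untreated peaks.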

How the data were processed

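ATAC-seq peaks from 1 R848 and 1 untreated library were used as the authors deposited them. Per the submitters' processing notes, bcl2fastq 2.19, Bowtie2 2.2.6 and MACS2 2.2.7.1 were used with mm10, with no settings given. Per the labels' protocols 50000 cells were tagmented, with 15 cycles of PCR not modelled here. How duplicates and the shift of insertion sites were handled is not given in the sources used here. As deposited, the fold is a ratio of summit pileup to background within a library. The deposited −log10 p and −log10 q are those of the summit. The smallest −log10 p was 2.01 in each list. Peaks with a false discovery rate above 0.05 made up 48.2% of the R848 list and 36.5% of the untreated list. The lists are thus not limited to peaks at that rate. The main counts of R848-only, untreated-only and shared peaks include such weak peaks and depend on this loose limit. The deposited score is about 10 times the −log10 p and was not used.

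Tags were solved from the fold as (pileup + 1)/(background + 1) and the p as a Poisson tail, to within 0.1%, for 99.8% of R848 and 99.9% of untreated peaks. The median was 8 tags for R848 and 7 for untreated peaks, so single peaks are imprecise. Peaks overlapping by at least 1 bp were shared. Genes, starts and promoter sequences came from RefSeq tables (GRCm38.p6, the assembly of mm10), and 9 of the 10 genes, all but Alox5ap, matched a promoter. Motif, overlap and assignment steps used scipy 1.17.1, pandas 2.3.3 and numpy 2.4.6 under Python 3.11.15, with figures from matplotlib 3.10.9, and were tested on simulated data. The genes and lists were chosen with earlier results of these data known. All 10 genes were named. Peaks were named if strongest at a gene in either list, within 1 kb of a gene end, or between Pla2g4a and Ptgs2 with a −log10 q of at least 2, and a few others were chosen after their values were seen. Other pathway genes were named with at least 3 R848-only peaks or with none in either list, and Cysltr1 and Acsl4 for being on X. Alternatives covered the overlap, the q threshold, the list length and the gene assignment.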

Additional observations from a re-analysis of the deposited data

How the results depend on the processing

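The main counts were 38 R848-only, 36 untreated-only and 9 shared sites at the 10 genes, 13 R848-only and 4 untreated-only peaks from Pla2g4a to Ptgs2, 10 of 10 genes and 27 of 48 pathway genes with an R848-only peak. Counting peaks up to 500 bp apart as shared, or asking for an overlap over at least 50% of the shorter peak, moved none of these by over 1.5 times. With a −log10 q of at least 2 in both lists, R848-only peaks numbered 23, untreated-only 18 and shared 3, with 8 R848-only from Pla2g4a to Ptgs2 and 15 pathway genes. With that threshold on one list and the full other list there were 20 R848-only and 15 untreated-only peaks, 8 R848-only from Pla2g4a to Ptgs2 and 11 pathway genes. At a −log10 q of at least 5 there were 10 R848-only, 2 untreated-only and 1 shared, with 4 R848-only and 0 untreated-only from Pla2g4a to Ptgs2, 5 of the 10 genes and 6 pathway genes. Fewer peaks enter these counts by construction. Against the full other list, 22.6% of all R848-only and 31.4% of all untreated-only peaks reached a −log10 q of at least 2. For the counts of genes at these thresholds no share of all genes is given, so they are not compared with the genome. Lists of equal length gave 41 R848-only, 18 untreated-only and 6 shared peaks. The main counts of 38 and 36 come from lists of unequal length, 37725 R848 and 77060 untreated peaks. Gene ends within 20 kb gave 25 R848-only and 10 untreated-only peaks. Of all assigned peaks, 67.2% in the R848 list and 53.2% in the untreated list lay within 20 kb. Ends of any gene type gave 27 R848-only, 18 untreated-only and 5 shared. For list length and gene ends, no share of all peaks that were R848-only or untreated-only is given, so these counts are not compared with the genome. Counting every gene with a summit in it or within 50 kb, 43 pathway genes had an R848-only peak, against 77.2% of all protein-coding genes. For single genes, 34 of 90 counts moved by over 1.5 times. Pla2g4a had 7 R848-only peaks at a −log10 q of at least 2, 3 at 5, and 9 within 20 kb. No paired analysis was possible because each group holds 1 library and no test was made. Depth limits single peaks, whose median was 8 tags in the R848 and 7 tags in the untreated list.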

Other observations

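Peaks at 4 of the other pathway genes, Fpr2, Lpcat3, Hpgds and Ltc4s, were chosen for description after their values were seen, and peaks at others, such as the 18-tag R848 peak of Pla2g6, were of like strength. Fpr2, which encodes a receptor for formyl peptides and lipoxin A4, had a site on chromosome 17 in both lists, 7045 bp outside the gene in the R848 list. It held 33 tags (22.7 to 46.3) in the R848 list (17900527 to 17901233) and 4 tags (1.09 to 10.2) in the untreated list (17900886 to 17901085). These intervals do not overlap, with tags not scaled for the background, which was 1.40 times higher in the R848 library. On the same unscaled measure the intervals of the Ptgs2os2 site, 23.5 to 47.5 for R848 and 5.49 to 19.7 for untreated, do not overlap either. Fpr2 also had R848-only peaks of 9 and 14 tags and no untreated-only peak. Lpcat3, whose product loads arachidonic acid into phospholipids, had a peak within 200 bp of a gene end in both lists, with 26 R848 tags (17.0 to 38.1) and 13 untreated tags (6.92 to 22.2).

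Hpgds, the gene of the haematopoietic prostaglandin D synthase, had an R848-only peak of 20 tags (12.2 to 30.9) whose summit lay 195 bp inside a gene end on chromosome 6 (65144587 to 65145267). It had 6 untreated-only peaks as well, of 4 to 10 tags. Ltc4s, the leukotriene C4 synthase gene, had a site in both lists within 300 bp of a gene end, with 17 R848 tags (9.90 to 27.2) and 6 untreated tags. These are values of 1 library per group, with no replicate check.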
